A study of Mus musculus with 8 samples.

Results

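The interleukin 1 and interleukin 18 genes examined here were 10 in number: the ligands Il1a, Il1b and Il18, the receptor antagonist Il1rn, the signalling receptors Il1r1, Il1rap, Il18r1 and Il18rap, the decoy receptor Il1r2 and the binding protein Il18bp. They were chosen by name from the 35897 genes of the table, and 7 of the 10 passed the filter on low counts that left 10354 genes to test. Total RNA was taken from mouse buffy coat, the fraction of spun blood where leukocytes and platelets collect. Of the 8 libraries, 4 followed PM2.5 (inhalable fine particles) and carry the numbers 9, 17, 18 and 21. The other 4 followed PBS, a saline buffer, and carry the numbers 4, 10, 12 and 16. The exposure time was 24 weeks in both groups. No source used here gives the strain, age, sex or route. Nor do the labels tie libraries to single animals, so a p-value here measures the spread between libraries, which may be technical.

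Interleukin 1 alpha and beta are inflammatory cytokines that act through the same receptor, Il1r1, once it has recruited the accessory chain Il1rap. The brake on them comes from Il1rn, which occupies the receptor without signalling, and from Il1r2, a decoy that binds ligand but lacks the signalling domain and is made in quantity by neutrophils. Interleukin 18 uses a parallel pair of chains, Il18r1 and Il18rap, which are carried by natural killer cells and some T cells, and it is held inactive in the circulation by Il18bp. Interleukin 1 beta and interleukin 18 are made as precursors that caspase 1 cleaves, so the transcript level is a single layer of the control of these cytokines.

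The bases upstream of 4 members' start sites are shown because they carry or lack short promoter motifs and because Il1rn has separate start sites, described with its transcripts. Each run is the 250 bases before a start site, read 5′ to 3′ on the gene's strand, from RefSeq's GRCm38.p6 annotation, and capitals mark motif matches. All 10 members had an entry. The motif set was chosen after these data were seen, and the NF-kB spelling was narrowed after a looser one matched a large share of all promoters. The motifs searched on both strands were the TATA box (TATAAA), AP-1 (TGANTCA), PU.1 (GAGGAAGT), C/EBP (TTGCNNAA) and NF-kB (GGGA and TTCC with 2 bases between), and no printed match overlaps another.
Il1a, chr2:129309973-129310222, minus strand: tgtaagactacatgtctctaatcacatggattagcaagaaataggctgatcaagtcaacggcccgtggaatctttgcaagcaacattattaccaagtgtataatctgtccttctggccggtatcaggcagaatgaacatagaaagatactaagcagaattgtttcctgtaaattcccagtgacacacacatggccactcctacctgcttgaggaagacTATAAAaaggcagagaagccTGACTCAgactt
Il1b, chr2:129371140-129371389, minus strand: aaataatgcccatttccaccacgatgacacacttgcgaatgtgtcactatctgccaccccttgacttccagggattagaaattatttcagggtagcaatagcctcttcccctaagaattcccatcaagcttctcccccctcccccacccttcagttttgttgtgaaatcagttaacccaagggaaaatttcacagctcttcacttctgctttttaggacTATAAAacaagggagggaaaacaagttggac
Il1rn, upstream start, chr2:24336610-24336859, plus strand: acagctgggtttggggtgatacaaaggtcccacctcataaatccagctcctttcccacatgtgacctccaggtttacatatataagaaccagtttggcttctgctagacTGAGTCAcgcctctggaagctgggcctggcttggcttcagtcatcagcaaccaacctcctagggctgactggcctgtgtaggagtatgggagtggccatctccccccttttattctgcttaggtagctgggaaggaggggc
Il1rn, downstream start, chr2:24345041-24345290, plus strand: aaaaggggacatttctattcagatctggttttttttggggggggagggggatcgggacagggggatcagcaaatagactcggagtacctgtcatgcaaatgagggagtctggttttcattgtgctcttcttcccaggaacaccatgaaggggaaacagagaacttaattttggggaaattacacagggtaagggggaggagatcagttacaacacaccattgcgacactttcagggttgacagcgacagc
Il18rap, chr1:40515112-40515361, plus strand: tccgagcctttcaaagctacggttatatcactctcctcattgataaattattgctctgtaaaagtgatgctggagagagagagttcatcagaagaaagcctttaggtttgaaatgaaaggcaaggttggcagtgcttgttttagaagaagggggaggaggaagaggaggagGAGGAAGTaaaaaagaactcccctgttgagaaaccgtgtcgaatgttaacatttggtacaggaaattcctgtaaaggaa

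Both interleukin 1 ligand genes held TATAAA close to the start, beginning 32 bases upstream in Il1a and 31 in Il1b. This motif lay somewhere in the same window of 12.4% of 32851 RefSeq promoters. Il1a also held TGACTCA beginning 12 bases upstream, and the upstream start of Il1rn held TGAGTCA beginning 141 bases upstream, a motif found in 6.75% of promoters. The PU.1 letters, in 2.44% of promoters, began 79 bases upstream of Il18rap. The NF-kB letters, in 1.21% of promoters, were in none of the members' windows, which says only that this spelling is absent from them. Matches in windows not shown were the C/EBP letters in Il1r1 and Il18bp (9.56% of promoters) and a reversed TATA box in Il18. For Il1r2 the RefSeq start lies 1395 bases downstream of the start of the transcript that took most of its counts, so its window is not shown.

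Among the 7 tested members, 0 passed the test between PM2.5 and PBS at an adjusted p of 0.05 (edgeR's quasi-likelihood test, Benjamini-Hochberg over all genes tested), where 1.59% of all genes did. Only Il1r2 had an unadjusted p under 0.05 (0.0184), which 18.1% of all genes had. DESeq2 also called 0 members, where it called 367 of 18026 genes. It gave no adjusted p for Il18bp, Il1a, Il1r1 and Il18, which it therefore could not call. In 0 of the 7 did the PM2.5 and PBS libraries separate completely, against 9.68% of all genes tested (6.64% with PM2.5 lower). The log2 fold changes of the 7 had a median of -0.11 (4 negative, 3 positive), against 0.04 for all genes tested. The largest in size was that of Il1r2, -0.78.

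Haemoglobin transcripts took 82.3% to 87.9% of the counts in PBS libraries and 86.7% to 88.6% with PM2.5, and 9637639 to 12752766 counts per library were left for every other gene. Levels are depth-scaled counts (CPM) after TMM scaling, which set effective library sizes of 54028900 and 54571300 in PM2.5 replicates 18 and 17, and between 74065200 and 110046000 in the rest. The same replicates 17 and 18 held the glutamate transporter transcript Slc1a2 at 1.01 and 1.09 CPM, while the other 6 libraries held between 0 and 0.0914 CPM. Results for members are therefore also given without that pair where they moved most. Slc1a2 is among 12 brain markers listed, of which 4 were tested and 0 passed (1.59% of all genes did). Camk2a and Snap25, of the same list, reached 1.80 and 0.537 CPM with PM2.5 and 0.0373 and 0.0274 CPM in PBS. Each had a lowest PM2.5 level of 0. Gfap (0.498 to 1.13 CPM with PM2.5, 0.504 to 0.837 in PBS) and Mbp (6.64 to 9.49 and 6.66 to 9.31) overlapped between the groups. In bulk libraries such as these, fewer cells of a type and less RNA per cell cannot be told apart.

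Compared per length, Il1b was the most abundant member. Its FPKM (fragments scaled by transcript length and library, the authors' values, summed over a gene's transcripts) averaged 7.06 ± 5.64 in PBS and 3.95 ± 0.743 with PM2.5 (SD, n = 4 each). Il1r2 came next, at 3.19 ± 1.904 FPKM in PBS and 1.38 ± 0.664 with PM2.5, and was below Il1b in each of the 8 libraries. Then followed, in PBS, Il18rap at 0.690 ± 0.267 FPKM, Il18r1 at 0.390 ± 0.162, Il1rn at 0.323 ± 0.200, Il1rap at 0.275 ± 0.0785 and Il18bp at 0.240 ± 0.107, neighbours whose spreads overlap. With PM2.5 these 5 genes averaged between 0.235 and 0.325 FPKM. The Il18rap sum includes transcripts annotated as retaining an intron. Its coding transcript Il18rap-201 alone was at 0.31, 0.33, 0.18 and 0.25 FPKM in PBS replicates 4, 10, 12 and 16. Il18r1 was at 0.40, 0.43, 0.17 and 0.56 FPKM in the same libraries. At the bottom in PBS lay Il18 (0.0550 ± 0.0191 FPKM), Il1a (0.0300 ± 0.0346) and the signalling receptor Il1r1 (0.0100 ± 0.00816), none of which passed the filter. With PM2.5 they were at 0.133 ± 0.167, 0.0225 ± 0.0189 and 0.0100 ± 0.00816 FPKM. The deposited FPKM have 2 decimals, which is coarse for these genes: Il1r1 is listed at 0 in PM2.5 replicate 17, where it had 2 counts. Per length, the decoy receptor transcript thus stood far above that of the signalling receptor in both groups. FPKM carries the authors' own library scaling rather than TMM, so group differences in FPKM and in CPM are not the same quantity.

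**Figure D1:**
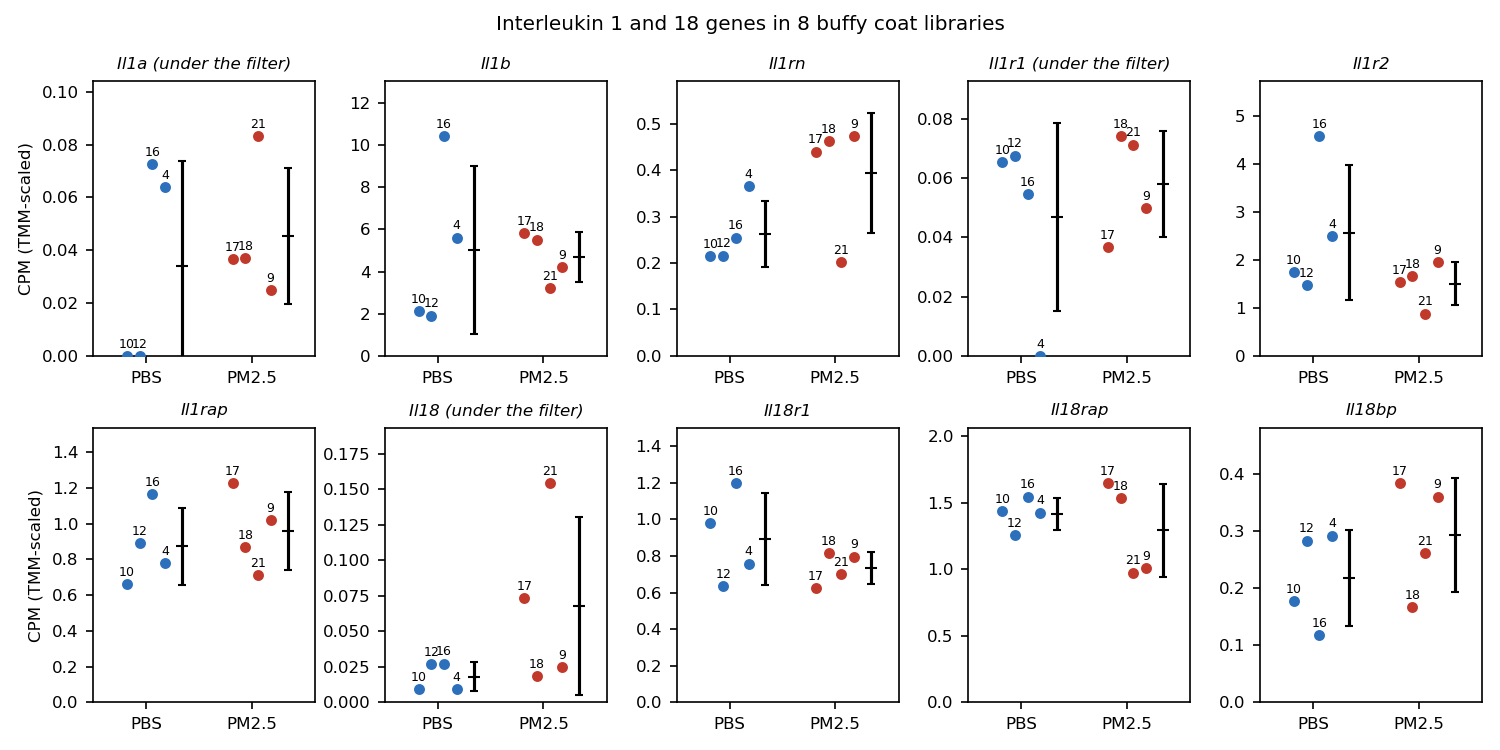
Level of each of the 10 members in CPM (vertical axes from 0, a scale per gene) in the 4 PBS (blue) and 4 PM2.5 (red) libraries, numbered by replicate, with the group mean and SD in black (bars cut at 0). No member's groups separate; Il1b runs from 1.904 to 10.4 CPM among PBS libraries and from 3.21 to 5.81 with PM2.5.

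Il1b (ENSMUSG00000027398, chromosome 2, 129364570 to 129371139, minus strand, GRCm38) stood at 4.22, 5.81, 5.52 and 3.21 CPM in PM2.5 replicates 9, 17, 18 and 21. In PBS replicates 4, 10, 12 and 16 it stood at 5.61, 2.12, 1.904 and 10.4 CPM. The PBS libraries lay on both sides of the exposed ones: replicates 10 and 12 were below every PM2.5 library, replicate 16 was above them all, and replicate 4 was within their range. The highest PBS library was 5.47 times the lowest, and the highest PM2.5 library 1.81 times the lowest. The group difference was a log2 fold change of -0.11 (SE 0.383, 95% interval -0.91 to 0.70, edgeR adjusted p = 0.900), and without PBS replicate 16 it was 0.52 (adjusted p = 0.420). Monocyte markers, of which 14 were tested, 3 passed upward (0.464% of all genes did) and 0 downward, summed to 153 to 239 CPM with PM2.5 and 121 to 192 CPM in PBS, and their part in the Il1b values was not tested.

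Il1a (ENSMUSG00000027399, chromosome 2, 129299610 to 129309972), the ligand that can act from the cell surface without caspase cleavage, had 28 counts in all. It had 2, 2, 2 and 7 counts in PM2.5 replicates 9, 17, 18 and 21, and 7, 0, 0 and 8 in PBS replicates 4, 10, 12 and 16. A count of 0 allows up to 0.0280 CPM in replicate 10 and 0.0405 CPM in replicate 12 (3 counts, counting error only). Without the count filter the log2 fold change was 0.36 (SE 1.06, edgeR adjusted p = 0.898). Both PBS libraries with 0 counts were also the pair with the lowest Il1b.

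Il18 (ENSMUSG00000039217, chromosome 9, 50554827 to 50581840) had 27 counts in all, 13 of them in PM2.5 replicate 21, and 1 to 4 in every other library. Its leading pair of annotated transcripts have the same ends and length and took equal counts in every library. In the fit without the count filter its log2 fold change was 1.85 (SE 1.10, edgeR adjusted p = 0.414). DESeq2 gave 1.95 (SE 1.07) and no adjusted p for so low a gene.

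The receptor antagonist Il1rn (ENSMUSG00000026981, chromosome 2, 24336853 to 24351494, plus strand) was at 0.473, 0.440, 0.463 and 0.202 CPM in PM2.5 replicates 9, 17, 18 and 21, and at 0.366, 0.215, 0.216 and 0.254 CPM in PBS replicates 4, 10, 12 and 16. In 3 of 4 PM2.5 libraries it was above all PBS libraries, and in replicate 21 it was below them. The log2 fold change was 0.56 (SE 0.343, 95% interval -0.16 to 1.28, edgeR adjusted p = 0.386). Il1rn counts per Il1b count, a ratio compared here only across libraries, ran from 0.0630 to 0.112 with PM2.5 and from 0.0244 to 0.113 in PBS. It was lowest in PBS replicate 16, where Il1b was highest.

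The decoy Il1r2 (ENSMUSG00000026073, chromosome 1, 40074079 to 40125231, plus strand) was at 1.95, 1.54, 1.67 and 0.879 CPM in PM2.5 replicates 9, 17, 18 and 21. It was at 2.496, 1.74, 1.47 and 4.58 CPM in PBS replicates 4, 10, 12 and 16. The groups overlapped, since PBS replicates 10 and 12 lay within the range of the PM2.5 libraries. Means were 1.51 ± 0.455 and 2.57 ± 1.41 CPM (SD, n = 4 each), a log2 fold change of -0.78 (SE 0.301, 95% interval -1.41 to -0.15, edgeR adjusted p = 0.195). It was -0.36 without PBS replicate 16 (adjusted p = 0.507). Scaling to library totals gave -1.39 and passed (adjusted p = 0.0211), but this scaling moved the median of all genes to -0.52, and relative to that median the difference was -0.86, close to -0.83 with TMM. A fit without the count filter also passed (-0.80, adjusted p = 0.00246), with 621 calls in place of 165.

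Pooled over both groups, Il1r2 and Il1b varied together once group means were subtracted (Pearson r of log2 CPM 0.88, 8 libraries sharing depth and scaling). With that subtraction it was the highest r among all pairs of tested members. Over all libraries without that subtraction r was 0.66, below the 0.73 of Il1r2 with Il18r1. The 4 PBS libraries had the same order in both genes. The 4 PM2.5 libraries did not: replicates 9, 17 and 18 had opposite orders, and replicate 21 was lowest in both. Counts of Il1b per count of Il1r2, a quantity that no scaling affects, were 2.16, 3.77, 3.31 and 3.65 in PM2.5 replicates 9, 17, 18 and 21. In PBS replicates 4, 10, 12 and 16 they were 2.25, 1.21, 1.29 and 2.27. In 3 of the 4 exposed libraries the ligand-to-decoy ratio was above that of any PBS library, and in replicate 9 it lay among the PBS values. This ratio was chosen after its values were seen and was not tested.

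**Figure D2:**
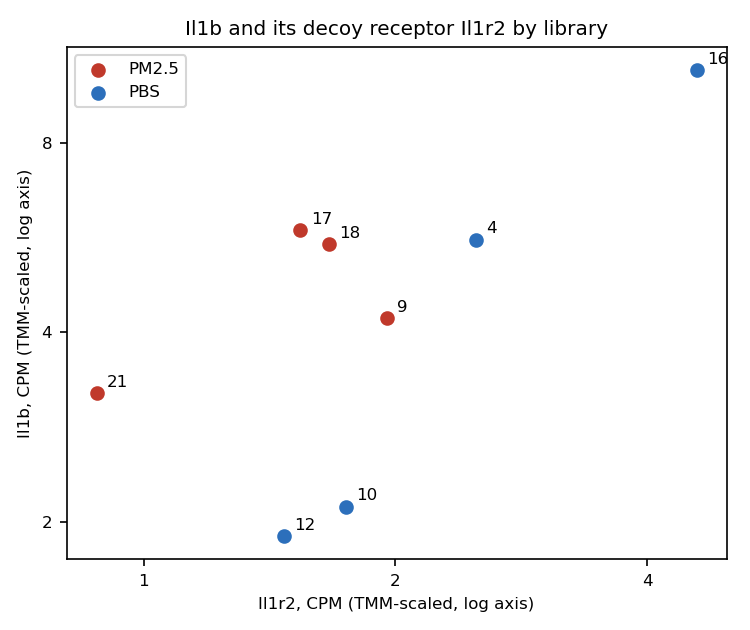
Il1b (vertical axis) against Il1r2 (horizontal axis) in CPM, both axes logarithmic, a point per library (blue PBS, red PM2.5, numbered by replicate). The PBS points climb from replicate 12 to replicate 16 in both genes, and PM2.5 replicates 17, 18 and 21 sit above and to the left of that climb, with 3.31 to 3.77 Il1b counts per Il1r2 count.

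Markers of neutrophils, a source of decoy receptor in blood, stood higher with PM2.5 beside these values. Of 15 listed, 11 were tested, 5 passed upward and 0 downward (0.464% and 1.13% of all genes; median log2 fold change 0.94, against 0.04 for all genes). The summed level of the list was 37.1 to 67.7 CPM with PM2.5 and 21.9 to 39.9 CPM in PBS, and its surface marker Ly6g was at 0 in PBS replicates 10 and 12 and at 0.147 CPM or less elsewhere. As a share of that sum, Il1r2 was 2.167% to 4.49% with PM2.5 and 6.72% to 11.5% in PBS, without overlap. By the same ratio 24.2% of all tested genes lay lower in every PM2.5 library than in any PBS library. Il1rap was 1.76% to 2.35% of the sum with PM2.5 and 2.63% to 4.07% in PBS, and Il18r1 was 0.920% to 2.20% and 2.57% to 4.10%, also without overlap. Il1b was 7.31% to 14.9% of the sum with PM2.5 and 8.70% to 26.1% in PBS, and Il1rn was 0.498% to 1.25% and 0.638% to 1.24%. These overlap, as did the shares of Il18rap and Il18bp, so that 3 of the 7 tested members separated. These shares were looked at after the levels were seen and were not tested. With the mean of the neutrophil list as a covariate, the log2 fold change was -1.80 for Il1r2 (edgeR adjusted p = 0.198) and -1.18 for Il1b (adjusted p = 0.484).

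Of the signalling chains, Il1r1 (ENSMUSG00000026072, chromosome 1, 40225080 to 40317257) had 34 counts in all. It had 4, 2, 4 and 6 counts in PM2.5 replicates 9, 17, 18 and 21, and 0, 7, 5 and 6 in PBS replicates 4, 10, 12 and 16. The 0 in PBS replicate 4 allows up to 0.0274 CPM. Without the count filter the log2 fold change was 0.30 (SE 0.957, edgeR adjusted p = 0.908). The accessory chain Il1rap, which other receptors of the family also use (ENSMUSG00000022514, chromosome 16, 26581704 to 26730117), was at 1.02, 1.23, 0.870 and 0.713 CPM in those PM2.5 libraries and at 0.777, 0.662, 0.891 and 1.16 CPM in the PBS libraries. These ranges overlap almost fully, with a log2 fold change of 0.13 (SE 0.233, 95% interval -0.36 to 0.61, edgeR adjusted p = 0.804). Its sign was not stable, being -0.03 without PBS replicate 10 and -0.45 under library totals.

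Both interleukin 18 receptor chains were measured. The ligand-binding chain Il18r1 (ENSMUSG00000026070, chromosome 1, 40465552 to 40500854) was at 0.797, 0.623, 0.814 and 0.701 CPM in PM2.5 replicates 9, 17, 18 and 21, and at 0.759, 0.979, 0.635 and 1.20 CPM in PBS replicates 4, 10, 12 and 16. PBS replicates 10 and 16 were above every PM2.5 library and the other PBS libraries were among them (log2 fold change -0.29, SE 0.232, 95% interval -0.78 to 0.20, edgeR adjusted p = 0.514). The signalling chain Il18rap (ENSMUSG00000026068, chromosome 1, 40515362 to 40551705) was at 1.01, 1.65, 1.54 and 0.974 CPM with PM2.5 and at 1.43, 1.44, 1.26 and 1.54 CPM in PBS, in the same order of replicates.

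The exposed libraries fell on either side of the PBS range for Il18rap: replicate 17 was above it, replicate 18 within it, and replicates 9 and 21 below it. Before scaling their Il18rap counts were close, at 81, 90, 83 and 82 in replicates 9, 17, 18 and 21. The split therefore follows their effective library sizes, 80348900, 54571300, 54028900 and 84194400 in that order. The log2 fold change of Il18rap was -0.15 (SE 0.201, 95% interval -0.57 to 0.27, edgeR adjusted p = 0.717). It was -0.51 without PM2.5 replicates 17 and 18 (adjusted p = 0.426) and 0.14 without replicates 9 and 21 (adjusted p = 0.756). Natural killer markers, of which 9 were tested and 1 passed upward (0.464% of all genes did), summed to 9.60 and 6.29 CPM in PM2.5 replicates 17 and 18, to 5.16 and 5.81 CPM in replicates 9 and 21, and to 4.23 to 5.53 CPM in PBS. These sums carry the same scaling as the Il18rap levels. T cell markers summed to 18.1 to 23.8 CPM with PM2.5 and 16.6 to 27.6 CPM in PBS, with 0 of 12 tested past the threshold (1.59% of all genes were). Their part in the Il18rap values was not tested.

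Il18bp (ENSMUSG00000070427, chromosome 7, 102014885 to 102018690, minus strand), the soluble inhibitor of interleukin 18, was at 0.361, 0.385, 0.167 and 0.261 CPM in PM2.5 replicates 9, 17, 18 and 21, and at 0.293, 0.177, 0.284 and 0.118 CPM in PBS replicates 4, 10, 12 and 16. Replicates 9 and 17 exceeded every PBS library and the other exposed libraries did not. The log2 fold change was 0.45 (SE 0.393, 95% interval -0.38 to 1.27, edgeR adjusted p = 0.559), and 166 counts over 8 libraries carried it. Across libraries Il18bp ran opposite to Il18r1 (r = -0.83 over 8 libraries), a description that rests on low counts. Among all pairs of tested members this r was the largest in size, and it was named for that.

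**Figure D3:**
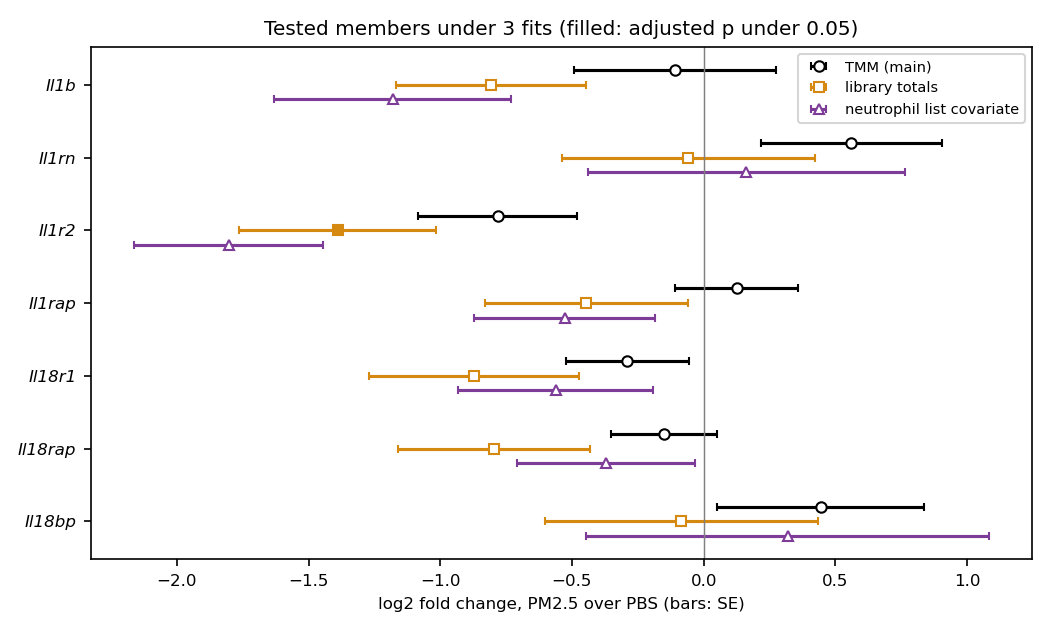
Log2 fold change of PM2.5 over PBS with its SE for the 7 tested members (horizontal axis) under TMM scaling, library totals and TMM with a neutrophil covariate. The filled symbol is Il1r2 under library totals (-1.39, adjusted p = 0.0211), and all 7 values lie further left under library totals than under TMM. The median of all genes is -0.52 under library totals and 0.04 under TMM.

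The table counts transcripts, which separates forms of a gene where reads allow. Il1b-201, the coding transcript of 7 exons, held 93.3% of the Il1b counts over all libraries, and Il1b-203, annotated as retaining an intron, held 6.54%. The intron-retaining share was 5.05% to 6.30% with PM2.5, and in PBS it ranged from 1.42% in replicate 12 to 14.1% in replicate 10. For Il1r2, the transcript of 9 exons (Il1r2-201) held 85.3%, and a form annotated as subject to nonsense-mediated decay held 14.2%. The decay form was 0 of 74 counts in PM2.5 replicate 21 and 23.4% in replicate 9, and 7.38% to 19.0% in PBS. These shares overlapped between the groups.

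Il1rn counts were divided between start sites. The transcripts Il1rn-201 and Il1rn-202, which begin at or close to the downstream start, held 65.9% and 16.98% of the counts over all libraries, and Il1rn-204, from the upstream start, held 15.2%. The upstream form had 11.5, 9.25, 0 and 7.74 expected counts in PM2.5 replicates 9, 17, 18 and 21, and 0, 3.71, 0 and 0 in PBS replicates 4, 10, 12 and 16. It was thus counted in 3 exposed libraries and 1 PBS library, at counts too few for a test. In Il18rap the intron-retaining Il18rap-202 held 26.9% of the counts, 13.7% to 36.9% with PM2.5 and 19.3% to 34.7% in PBS. Il1rap-206, a form of 8 exons, held 31.4%, 7.66%, 11.6% and 0% of Il1rap in PM2.5 replicates 9, 17, 18 and 21 and 0 to 5.49% in PBS, and the groups overlapped. Il18bp-203 had 0 counts in the PM2.5 libraries and PBS replicate 4, and 4.69, 14.65 and 8.99 in PBS replicates 10, 12 and 16.

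**Figure D4:**
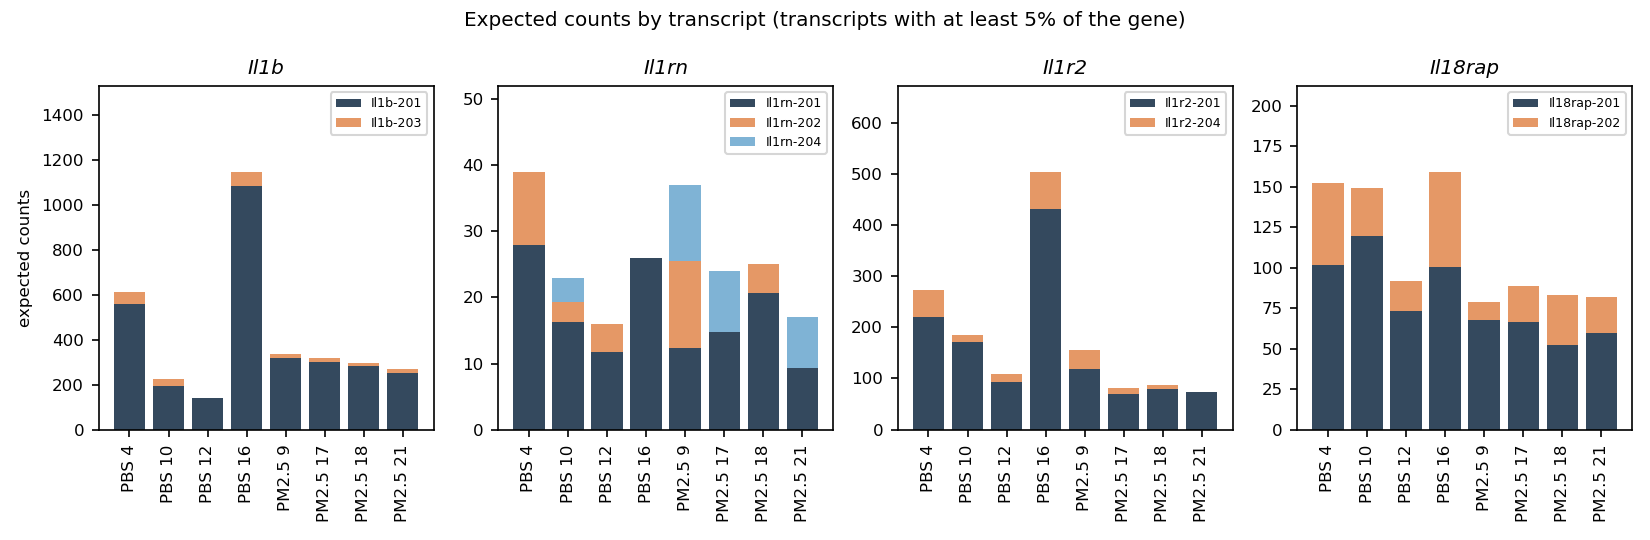
Expected counts (vertical axes from 0) of the transcripts holding at least 5% of Il1b, Il1rn, Il1r2 and Il18rap, stacked for each of the 8 libraries. Il1b and Il1r2 are both tallest in PBS replicate 16, and the upstream-start transcript Il1rn-204 appears in PM2.5 replicates 9, 17 and 21 and PBS replicate 10.

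Genes whose levels followed those of a member most closely were found among 9883 tested genes by Pearson r of log2 CPM over the 8 libraries, the 3 highest per member. For Il1b they were Trem1, an amplifying receptor of myeloid cells (r = 0.94), Acly (0.93) and Pak1 (0.93). For Il1r2 they were Mbd3 (0.94), Acod1, the itaconate-producing enzyme of activated myeloid cells (0.93, with a Spearman rho of 0.57), and Slc27a1 (0.93). Il1rap went with Agrn (0.95), Cd300ld (0.95) and Ppp1r3b (0.93), and Il1rn with Acad12 (0.96), Arpp21 (0.96) and Arhgap31 (0.96). Il18rap went with Rnf157 (0.96), Tmem131l (0.95) and Tmco4 (0.94), Il18r1 with Tyk2 (0.94), Dnajc4 (0.92) and L1cam (0.92), and Il18bp with Otud6b (0.95), Nfxl1 (0.92) and Rad51c (0.89). With 8 libraries that share depth and scaling, such values are a description.

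Among the other ligands and receptors of the family, Il1f9, which encodes interleukin 36 gamma, an agonist made by epithelial and myeloid cells, rose with PM2.5 (chromosome 2, 24186476 to 24193568). It was at 0.448, 0.861, 0.592 and 0.178 CPM in PM2.5 replicates 9, 17, 18 and 21, and at 0.0914, 0.103, 0.0405 and 0.182 CPM in PBS replicates 4, 10, 12 and 16. PM2.5 replicate 21 lay just below PBS replicate 16, and the other exposed libraries were above all PBS libraries. The log2 fold change was 2.24 (SE 0.476, edgeR adjusted p = 0.0259; 1.13% of all genes passed downward and 0.464% upward). It did not pass without PM2.5 replicate 17 (adjusted p = 0.0970) or 18 (0.0733), or PBS replicate 4 (0.0717) or 10 (0.113), and without both 17 and 18 it was 1.55 (adjusted p = 0.362). Of 8 keratinocyte markers, 4 had 0 counts, Krt5, Krt14 and Krt10 were at 0.0185 CPM or less in every library, and Sfn was at 0.407 to 0.531 CPM with PM2.5 and 0.309 to 0.616 CPM in PBS. Their part in the Il1f9 values was not tested. Of 11 genes of this list in the table, 3 were tested; Il1rl1, the interleukin 33 receptor (0.38), and Sigirr, an inhibitory receptor (-0.66), did not pass, and 5, among them Il1f5, Il1f6 and Il1f8, had 0 counts.

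Of 25 genes listed for interleukin 1 receptor signalling, inhibitors among them, 24 were tested. By edgeR's test 0 passed in either direction, against 1.59% of all genes. Of the 24, 13 were positive (median log2 fold change 0.08). The smallest p-values were those of Ikbkb, the kinase that releases NF-kB (-0.63, SE 0.159, adjusted p = 0.0546), and Irak4, the first kinase recruited to the receptor (0.94, SE 0.242, adjusted p = 0.0569). Of 22 genes for maturation and release, 18 were tested, and 1 passed in each direction (0.464% of all genes passed upward and 1.13% downward). Nlrp12, a regulator of inflammatory signalling in myeloid cells, rose from 0.108 to 0.254 CPM in PBS to 0.333 to 0.843 CPM with PM2.5 (log2 fold change 1.74, SE 0.397, adjusted p = 0.0351). The DNA sensor Aim2 fell from 0.672 to 1.07 CPM in PBS to 0.259 to 0.498 CPM (-1.15, SE 0.269, adjusted p = 0.0391). Neither gene's groups overlapped, as for 9.68% of all genes tested (6.64% with PM2.5 lower). Casp1 (0.44, adjusted p = 0.513), Nlrp3 (0.27, adjusted p = 0.593) and Gsdmd (-0.15, adjusted p = 0.755), the core of interleukin 1 beta processing and release, did not pass. The neutrophil protease genes Elane and Ctsg had 0 counts, and Prtn3 had 18 over all libraries.

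Of 18 genes that interleukin 1 induces in many cells, 10 were tested, 2 rose and 0 fell, where 0.464% and 1.13% of all genes did. Socs3, a feedback inhibitor of cytokine signalling, was at 8.05, 6.56, 4.44 and 5.38 CPM in PM2.5 replicates 9, 17, 18 and 21 and at 1.36, 2.27, 3.29 and 2.95 CPM in PBS replicates 4, 10, 12 and 16 (log2 fold change 1.31, SE 0.236, adjusted p = 0.0113). Its groups did not overlap, again as for 9.68% of all genes. Lcn2, an iron-sequestering protein of neutrophil granules, rose from 0.210 to 0.363 CPM in PBS to 0.463 to 1.19 CPM (1.47, SE 0.329, adjusted p = 0.0328). The neutrophil chemoattractant gene Cxcl2 was at -1.04 (adjusted p = 0.0953) and the response regulators Nfkbiz and Tnfaip3 at 0.01 and -0.49, none past the test. Of 11 genes of the interleukin 12 and 18 axis 8 were tested and 1 passed, downward (1.13% of all genes did): Stat4, which carries the interleukin 12 signal, fell from 1.64 to 2.56 CPM in PBS to 0.944 to 1.31 CPM (-0.86, SE 0.186, adjusted p = 0.0274). Leaving out single libraries removed several of these calls, but each of these genes kept its sign. The log2 fold change ran from 1.39 to 2.15 for Nlrp12, 1.18 to 1.66 for Lcn2 and 1.07 to 1.48 for Socs3. It ran from -0.99 to -0.78 for Stat4, and Aim2 also stayed negative. The same fits called 34 to 194 of all genes, against 165 with every library, and the cause of the lost calls was not tested. Nlrp12 lost its call without PM2.5 replicates 9, 17 or 21 or PBS replicates 4, 10 or 12 (adjusted p up to 0.153), and Aim2 without PM2.5 replicates 17, 18 or 21 or PBS replicates 4 or 10 (up to 0.164). Lcn2 lost it without PM2.5 replicates 9 or 17 or PBS replicates 4, 10 or 12 (up to 0.149), and Stat4 without PM2.5 replicates 17, 18 or 21 or PBS replicates 10 or 12 (up to 0.107). Socs3 lost it without PBS replicate 10 (0.0706), and Socs3, Lcn2 and Nlrp12 also lost it without both PM2.5 replicates 9 and 21 (0.0525 to 0.0560). Under library totals Il1f9, Nlrp12, Socs3 and Lcn2 did not pass (adjusted p 0.0722 to 0.170), nor under library totals with haemoglobin removed (0.0529 to 0.103). These settings moved the median of all genes to -0.52 and -0.30, against 0.04 with TMM. None of the 6 genes passed without both PM2.5 replicates 17 and 18 (0.0605 to 0.362). None passed with either covariate, but the sizes differed. With the neutrophil covariate Aim2 was at -1.13 and Stat4 at -0.64, while Socs3 was at 0.89, Il1f9 at 1.03, Nlrp12 at 0.52 and Lcn2 at 0.28 (adjusted p 0.512 to 0.850). Lcn2 belongs to the list that forms this covariate, so its smaller value there is partly built in and cannot be compared with the others. With the erythroid covariate Socs3 was at 1.35, Lcn2 at 1.30, Il1f9 at 1.82, Nlrp12 at 1.34, Aim2 at -0.72 and Stat4 at -0.72 (adjusted p 0.165 to 0.476). Of these genes limma on FPKM could test Socs3 (0.48 and 0.70 with pseudocounts of 1 and 0.1, adjusted p = 0.286 and 0.292) and Stat4 (-0.68 and -1.38, adjusted p = 0.139 and 0.164), and neither passed.

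B cell markers were lower beside the falls of Aim2 and Stat4. Of 12 tested, 3 passed downward (1.13% of all genes did) and 0 were positive, with a median log2 fold change of -0.38. Those 3 were the transcription factor gene Ebf1 (-1.12), the kinase gene Blk (-0.81) and the adaptor gene Bank1 (-0.79). The summed level of the list was 42.2 to 53.8 CPM with PM2.5 and 48.3 to 79.2 CPM in PBS, and its part in the Aim2 and Stat4 values was not tested. Neutrophil markers moved with Lcn2, which is itself in that list, and their part in these values was not tested.

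**Figure D5:**
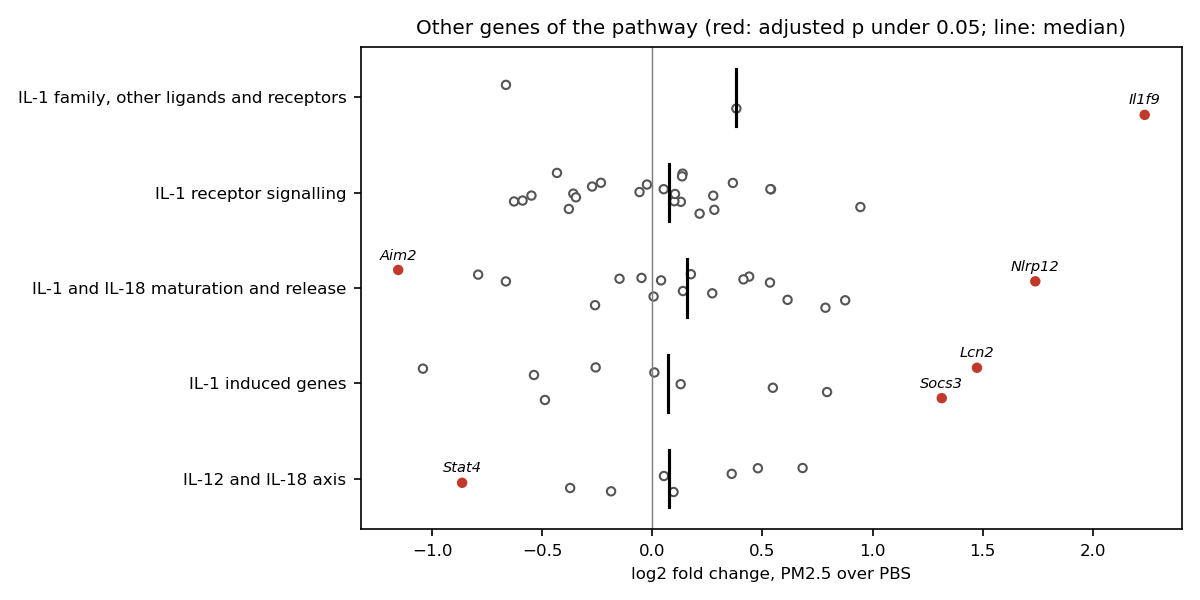
Log2 fold change of PM2.5 over PBS (horizontal axis) for each tested gene of 5 lists around the interleukin 1 and 18 genes, with the list median as a line (vertical jitter only separates points). Red points passed the test: Il1f9, Nlrp12, Socs3 and Lcn2 upward, Aim2 and Stat4 downward.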

How the data were processed

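Buffy coat RNA of 8 libraries was primed at random and its second strand marked with dUTP, per the labels' protocols. Of the tools, the submitters' processing notes list HISAT2 2.0.1, cutadapt 1.9.1 and bcl2fastq 2.17.1.14, with the build GRCm38. How reads were counted, and with what strand setting, is not given in the sources used here, and overlapping genes may share reads. The table holds expected counts, estimated by the authors per Ensembl transcript without normalization, and FPKM, scaled by the authors by length and library, per the file headers.

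Of 118783 transcripts, 116710 matched GENCODE M21 and were summed by gene name, and the other 2073 (0.0266% to 0.0532% of counts) were left out. The test on rounded sums was the two-sided quasi-likelihood test of edgeR 4.0.16 (R 4.3.3), after filterByExpr (minimum count 10, total 15) and TMM, with Benjamini-Hochberg adjustment over all genes tested. The SE is the log2 fold change over the square root of F, and 95% intervals use it. The procedure was tested on simulated data.

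The members and gene lists were chosen with earlier results of these data known. The text names all members, the 3 nearest genes by Pearson r for each, and list genes past adjusted p 0.05 (up to 6, otherwise the 2 with smallest p). Il1f5, Il1f6, Il1f8, Il1rl1, Sigirr, Casp1, Nlrp3, Gsdmd, Cxcl2, Nfkbiz, Tnfaip3, Elane, Ctsg, Prtn3, Slc1a2, Camk2a, Snap25, Gfap, Mbp, Ly6g, Krt5, Krt14, Krt10, Sfn, Ebf1, Blk and Bank1 were named after their values were seen, as was the ratio to the summed neutrophil list. Alternatives were scaling, filters, DESeq2 1.42.0, limma 3.58.1 on log2(FPKM + 1 or 0.1), covariates and libraries left out.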

Additional observations from a re-analysis of the deposited data

Results flagged for a closer look

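Il1rn in PM2.5 replicate 21 stood apart from the other exposed libraries, at 0.202 CPM against 0.440 to 0.473 in replicates 9, 17 and 18. The gap to its nearest neighbour was 0.878 of the range of the group, above Dixon's critical value of 0.829 for 4 samples. It rested on 17 counts. This was 1 of 20 groups examined, and chance alone marks about 1 group in 20. Without that library the log2 fold change of Il1rn was 0.79 (edgeR adjusted p = 0.225).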

How the results depend on the processing

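No paired analysis was possible because the groups share no replicate numbers. Over 20 alternative settings the 7 tested members gave 126 values, of which 13 had the opposite sign and 2 passed the threshold. Il1r2 was negative in all 20, between -1.80 and -0.36, and was the single member called lower (1 member) under library totals and without the filter. Il1b was 0.52 without PBS replicate 16, 0.04 without PM2.5 replicate 21 and 0.13 without PM2.5 replicates 9 and 21, and with single libraries left out it ran from -0.41 to 0.52. Without PM2.5 replicates 17 and 18 it was -0.44. Il18rap was 0.14 without PM2.5 replicates 9 and 21. Il1rap was -0.45 under library totals and -0.22 under library totals with haemoglobin removed. With the erythroid covariate Il1rap was -0.062, with the neutrophil covariate -0.53, and without PM2.5 replicates 17 and 18 -0.0063. With single libraries left out Il1rap ran from -0.026 (without PBS replicate 10) to 0.29, also negative without PM2.5 replicate 17. Under library totals Il18bp was -0.085 and Il1rn -0.058, where the median of all genes was -0.52. The causes were not tested.

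Over all genes, 165 were called (48 higher, 117 lower). Library totals called 491 (9 higher, 482 lower), no filter 621 and DESeq2 367. Haemoglobin removed with library totals called 10 higher and 221 lower genes, and a filter of 1 CPM in 4 libraries 29 and 195. The erythroid covariate called 0 (940 at an unadjusted p under 0.05), the neutrophil covariate 1, and limma 0 with either pseudocount (718 and 695 unadjusted). Without PM2.5 replicates 17 and 18 the count was 8, and without single libraries it was 34 to 194, lowest without PBS replicate 10. The limma settings could test Il1b and Il1r2 alone among the members, and the stricter filter 3 members. Depth limited Il1a, Il1r1 and Il18, with 27 to 34 counts each over all libraries.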
